A study of Homo sapiens with 6 samples.

Results

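Respiratory complex I was described here through 53 of the 35615 gene symbols in the count table. Earlier results of these data were known when they were chosen. They were defined by name: every symbol made of NDUFA, NDUFB, NDUFC, NDUFS, NDUFV or NDUFAF and a number, without the pseudogenes, and every symbol that starts with MT-ND. They hold the 7 mitochondrially encoded core subunits, the 7 nuclear core subunits, 29 nuclear accessory subunits (12 NDUFA, 13 NDUFB or NDUFC, and 4 NDUFS or NDUFV), the assembly factors NDUFAF1 to NDUFAF7, NDUFA4 and its relative NDUFA4L2, and a readthrough symbol, NDUFC2-KCTD14. NDUFA4 carries a complex I name but is now counted as a subunit of cytochrome c oxidase. The assembly factor NDUFAF8 appears in the table under its older symbol, C17orf89, and so was not among the 53. The acyl carrier protein NDUFAB1, also an accessory subunit, has a letter after NDUFA. It was not among the 53 either and was listed with the supply genes below.

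The RNA came from K562 cells, an erythroleukaemia line from chronic myeloid leukaemia that carries the BCR-ABL1 fusion kinase. In the miR92a group, 5 M cells received a synthetic hsa-miR-92a-1-5p mimic (500 pmol) by nucleofection, and in the scramble group the same amount of a negative-control mimic. Every culture of both groups then received imatinib, a BCR-ABL1 inhibitor, at 1 µM; it was added 4 h after nucleofection and the cells were harvested for RNA 24 h later still. Each group had 3 libraries labelled as biological replicates (miR92a 1 to 3 and scramble 1 to 3). Cultures free of imatinib or of any mimic were not analysed here, so the comparison asks only what the mimic changed in cells under imatinib. A single cell line and a transient transfection limit what the groups stand for.

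Complex I is the entry point of the mitochondrial respiratory chain. It takes electrons from NADH in the N module of its matrix arm, passes them along iron-sulphur clusters to ubiquinone in the Q module, and pumps protons through the membrane arm, the P module. Its core subunits come from both genomes, so that transcription in the nucleus and in mitochondria has to supply the same enzyme, and the accessory subunits and assembly factors are all nuclear.

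The agent added to the cells and its possible pairing sites in complex I transcripts are shown first, because the mimic is what set the groups apart. The mature miRNA lies in the reference at chr13:91351324-91351346 on the plus strand (RefSeq, GRCh38.p14), with its seed, bases 2 to 8, in capitals.
hsa-miR-92a-1-5p: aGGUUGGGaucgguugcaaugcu
Seed matches were sought as CCCAACC (7mer-m8), CCAACCA (7mer-A1) or CCCAACCA (8mer) on the sense strand of each gene's longest 3′ UTR in GENCODE v29 (GRCh38). The 8mer contains both 7mers. Of the 44 tested nuclear members other than the readthrough symbol, 6 held a match (13.6%), against 2173 of 12888 tested genes with a 3′ UTR (16.9%); the median 3′ UTR was 662 bases in these members and 1327 bases in all. NDUFA4L2 and NDUFC2-KCTD14 held none. The windows for 5 of them follow, with the matched bases in capitals and the sites written 5′ to 3′ on the transcript's strand.
NDUFA5, 7mer-A1 match, chr7:123540464-123540490, minus strand: aattttctagCCAACCAttatttttca
NDUFA3, 7mer-A1 match, chr19:54107389-54107415, plus strand: caggcacttgCCAACCAagcctaacat
NDUFA10, 7mer-A1 match, chr2:239959246-239959272, minus strand: gcagagctctCCAACCAtgcagggctc
NDUFAF1, 7mer-A1 match, chr15:41387349-41387366, minus strand: ttaatggcatCCAACCAa
NDUFS1, 7mer-m8 match, chr2:206115327-206115353, minus strand: ggctccgcctCCCAACCctgttgcatt
The remaining gene, NDUFB9, held an 8mer that is not printed. Among these 6 the log2 fold change, miR92a over scramble, was -0.26 for NDUFA5, -0.15 for NDUFAF1, 0.01 for NDUFS1, 0.08 for NDUFA10, 0.11 for NDUFB9 and 0.47 for NDUFA3. Their median was 0.05, against 0.11 for nuclear members without a match; over all tested genes the medians were -0.13 with a match and 0.01 without. None of the 6 passed the test. A match describes the letters only and was not tested as a binding site. The MT-ND transcripts, which have almost no untranslated sequence, held a 7mer in MT-ND1, MT-ND2, MT-ND4 and MT-ND5 and none in MT-ND3, MT-ND4L and MT-ND6.

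Counts are kallisto estimates per symbol; levels are given in CPM, counts scaled to a common library total after TMM normalization, and a difference is a log2 fold change from edgeR's quasi-likelihood fit with its standard error. Library totals were 24.8 to 26.0 M counts in 5 libraries and 0.704 M in miR92a 1, where a floor of 3 counts equals 4.08 CPM, against 0.115 to 0.125 CPM elsewhere. Counting error is therefore largest in miR92a 1, whose 36 nuclear subunit transcripts together had 1861 counts, against 65716 to 75676 in the other libraries. All 9 erythroid markers were detected above 1 CPM, with summed levels of 9242 to 18302 CPM in miR92a libraries and 11751 to 19391 CPM in scramble libraries. The labels give the cell type as myeloblast. Of its 7 markers, MPO and CTSG were at 0 in all 6 libraries. The 7 summed to 15.0 to 22.1 CPM with miR92a and 22.6 to 25.6 CPM with scramble. Most of that sum was CD33, at 14.03 to 18.25 CPM with miR92a and 15.8 to 20.71 CPM with scramble. The 5 markers of other cell types, mostly EPCAM, summed higher than the myeloblast markers. Their sums were 183.1 to 190.8 CPM with miR92a and 159.5 to 196.9 CPM with scramble. The label itself was not tested.

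No complex I transcript passed the threshold between the groups (adjusted p of 0.05, Benjamini-Hochberg over all 14543 tested genes, 3 libraries per group). Of the 52 tested members 0 were lower, against a background of 0.976% of all tested genes, and 0 were higher, against 0.433%. At an unadjusted p under 0.05, the same edgeR test had 1 member, NDUFC2, against 13.5% of all genes. DESeq2 called 0 members after adjustment, where it called 242 of all 14543 tested genes lower and 137 higher. For NDUFA3 and NDUFC2-KCTD14 DESeq2 gave no adjusted p. The untested member, NDUFA4L2, did not pass the filter on low counts, with 0, 8 and 8 counts in miR92a 1 to 3 and 8, 7 and 2 counts in scramble 1 to 3. For 48 of the 52 the 95% interval of the fold change lay inside a fold of 1.5 in either direction, as it did for 6382 of the 14543 tested genes. The exceptions were NDUFA3, NDUFA5, MT-ND1 and NDUFC2-KCTD14. Since RNA was measured in bulk, fewer cells with a transcript and less of it per cell cannot be told apart.

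**Figure D1:**
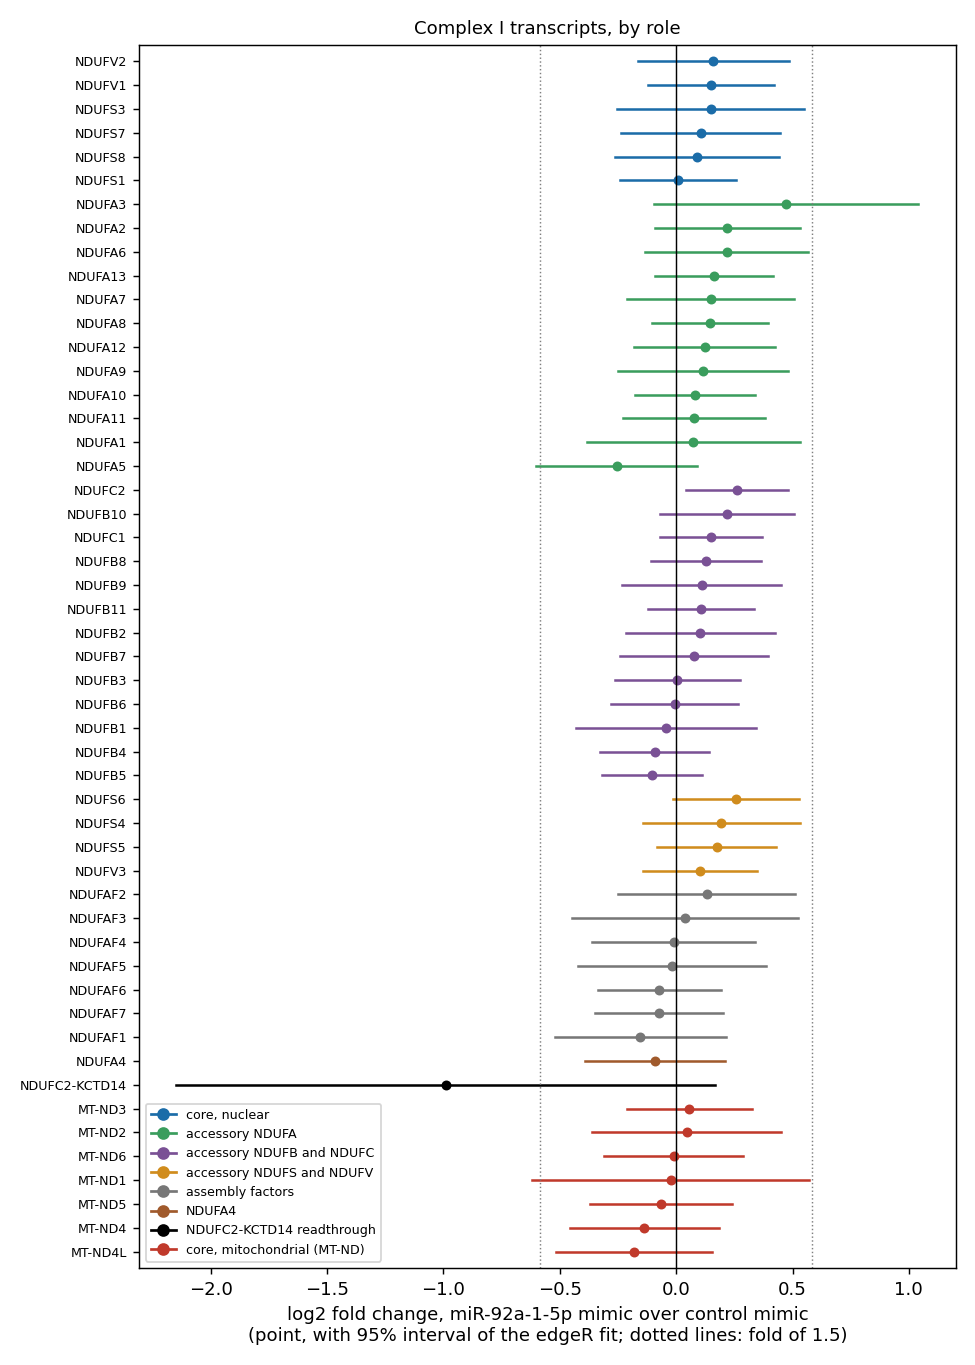
Log2 fold change of tested complex I transcripts, miR-92a-1-5p mimic over control mimic, with 95% intervals from the edgeR fit, coloured by role; dotted lines mark a fold of 1.5. The 6 nuclear core points drawn lie above 0, MT-ND points lie on both sides of 0, and the NDUFC2-KCTD14 interval is the widest.

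With the replicate number as a block in the fit, 1 member was lower, NDUFC2-KCTD14, where 6.70% of all tested genes were lower, and 0 members were higher, where 4.57% of genes were. At an unadjusted p under 0.05 the blocked edgeR fit had 3 members lower and 4 higher, against 24.0% of all genes in either direction. These shares lie below the background in each case. Without regard to a model, the 3 miR92a values lay wholly above the 3 scramble values for 4 members (NDUFC2, NDUFC1 and NDUFA3 among them), against 9.73% of genes, and wholly below for 0 members, against 11.5%. The count of 4 in 52 is near its background.

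The core subunits carry the redox centres and the proton channels. The 7 nuclear ones had log2 fold changes between 0.01 and 0.16, with a median of 0.15, beside a median of -0.01 over all tested genes. Between libraries of the same number, their median difference was -0.07 in replicate 1, which holds the shallow miR92a library. It was 0.05 in replicate 2 and 0.18 in replicate 3. NDUFV1, which binds FMN and oxidises NADH, had 146, 167 and 203 CPM in miR92a 1 to 3 and 153, 161 and 161 CPM in scramble 1 to 3. The miR92a values lie on both sides of the scramble values, and the fitted difference was 0.15 ± 0.12 (SE, edgeR adjusted p = 0.670). NDUFV2, an iron-sulphur subunit of the N module beside it, had 109, 122 and 148 CPM in miR92a 1 to 3 and 107, 104 and 135 CPM in scramble 1 to 3. The highest library of each group was its replicate 3, the groups overlapped, and the difference was 0.16 ± 0.14 (adjusted p = 0.711).

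NDUFS1, the largest subunit of the matrix arm, which carries several of the clusters, had 136, 165 and 184 CPM in miR92a 1 to 3 and 162, 162 and 168 CPM in scramble 1 to 3. Here the spread within the miR92a group enclosed the whole scramble group and the difference was 0.01 ± 0.11.

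NDUFS3, a Q-module scaffold subunit, had 24.5, 39.8 and 48.2 CPM in miR92a 1 to 3 and 36.2, 36.2 and 37.4 CPM in scramble 1 to 3. The scramble libraries nearly coincide, while the miR92a libraries lie below, just above and well above them, with a difference of 0.15 ± 0.18. In the annotation NDUFS3 shares 721 exonic bases on the same strand with PTPMT1, a mitochondrial phosphatase, which was itself higher with miR92a (log2 fold change 1.63, edgeR adjusted p = 0.0024), so the split of estimated counts between the pair is uncertain. NDUFS7, which holds the last cluster before ubiquinone, had 51.7, 61.3 and 55.2 CPM in miR92a 1 to 3 and 56.2, 60.3 and 42.5 CPM in scramble 1 to 3. NDUFS8, a ferredoxin-like subunit of the Q module, had 95.2, 95.3 and 76.1 CPM in miR92a 1 to 3 and 84.4, 95.6 and 67.1 CPM in scramble 1 to 3. In contrast to the flavin-site subunits, NDUFS8 was lowest in replicate 3 of both groups, and NDUFS7 was lowest there in scramble only; their differences were 0.09 ± 0.15 and 0.11 ± 0.15 for NDUFS8 and NDUFS7.

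**Figure D2:**
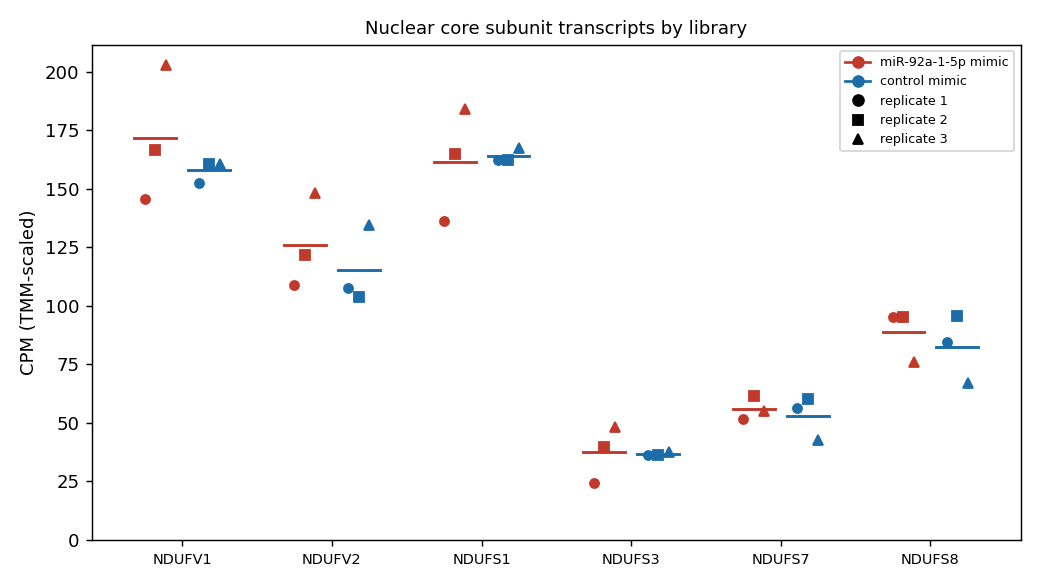
Level in CPM (TMM-scaled) of 6 nuclear core transcripts in each library; points are libraries, shapes are replicate numbers and bars are group means. The groups overlap for each of the 6; NDUFV1 spans 146 to 203 CPM with miR92a and 153 to 161 CPM with scramble.

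The mitochondrially encoded core subunits were present at far higher levels. Per kilobase of transcript, MT-ND2 averaged 8269 ± 1775 CPM per kb with miR92a and 8016 ± 1516 with scramble (SD, n = 3 each), and MT-ND4 averaged 8104 ± 655 with miR92a and 8915 ± 1677 with scramble. MT-ND4L followed at 5419 ± 614 with miR92a and 6147 ± 1194 with scramble, MT-ND1 at 5147 ± 1473 with miR92a and 5238 ± 1812 with scramble, and MT-ND3 at 4529 ± 540 with miR92a and 4368 ± 463 with scramble. MT-ND5, at 1968 ± 295 with miR92a and 2063 ± 263 with scramble, and MT-ND6, at 1592 ± 235 with miR92a and 1613 ± 200 with scramble, were the lowest. MT-ND2 and MT-ND4 change places between the groups, and the means of MT-ND4L and MT-ND3 lie within the spread (SD) of MT-ND1 in both groups. MT-ND4L was above MT-ND3, and MT-ND5 above MT-ND6, in each of the 6 libraries, though the ranges of MT-ND5 and MT-ND6 over libraries overlap. The 44 nuclear members other than the readthrough symbol had a median of 68.0 CPM per kb with miR92a (range 4.22 to 290.9) and 65.9 with scramble (range 4.66 to 273.5), taking the median length of their coding transcripts in GENCODE v29. MT-ND4 and MT-ND4L come from a single bicistronic message and share 7 bases in the annotation. MT-ND6 is encoded on the opposite strand from the other MT-ND genes and overlapping antisense RNA cannot be separated here, since the strand setting of the libraries is not given in the sources used here.

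Between the groups the MT-ND transcripts had log2 fold changes from -0.18 to 0.06, with 2 above 0 and 5 below, a median of -0.02 and edgeR adjusted p-values of 0.677 to 0.992. Scaled by total counts alone, MT-ND6 was at 0.01 and so above 0. The median ran from -0.19 without miR92a 3 to 0.10 without scramble 3. MT-ND4L, a small membrane subunit next to MT-ND6, had 1501, 1507 and 1820 CPM in miR92a 1 to 3 and 1578, 1667 and 2232 CPM in scramble 1 to 3. It had the lowest fold change of the 7, at -0.18 ± 0.15, with overlapping groups. Its partner MT-ND4, an antiporter-like proton pump, had 10227, 11248 and 12028 CPM in miR92a 1 to 3 and 10255, 11802 and 14799 CPM in scramble 1 to 3. The replicate 1 libraries are nearly equal and the gap lies mainly in replicate 3; the difference was -0.14 ± 0.14 (adjusted p = 0.758). The count of MT-ND4L per count of MT-ND4 was 0.147, 0.134 and 0.151 in miR92a 1 to 3 and 0.154, 0.141 and 0.151 in scramble 1 to 3. The ratio thus stayed between 0.134 and 0.154 over the libraries.

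MT-ND1, which forms the ubiquinone channel with the Q module (chromosome M, 3307 to 4262), had 3788, 4477 and 6498 CPM in miR92a 1 to 3 and 3741, 4301 and 6982 CPM in scramble 1 to 3. Replicate 3 was the highest in both groups by more than any gap between groups, and the difference was -0.02 ± 0.26. MT-ND2, another antiporter-like subunit, had 7148, 8006 and 10694 CPM in miR92a 1 to 3 and 7183, 7726 and 10149 CPM in scramble 1 to 3. MT-ND5, the outermost of these pumps, had 3105, 3443 and 4152 CPM in miR92a 1 to 3 and 3410, 3518 and 4285 CPM in scramble 1 to 3. Both again had replicate 3 on top in each group, with differences of 0.05 ± 0.18 for MT-ND2 and -0.07 ± 0.13 for MT-ND5. MT-ND3, whose loop lies near the ubiquinone site, had 1354, 1643 and 1704 CPM in miR92a 1 to 3 and 1410, 1428 and 1696 CPM in scramble 1 to 3. MT-ND6 had 702, 861 and 944 CPM in miR92a 1 to 3 and 792, 781 and 968 CPM in scramble 1 to 3. Their differences were 0.06 ± 0.12 for MT-ND3 and -0.01 ± 0.13 for MT-ND6, and the groups overlapped.

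**Figure D3:**
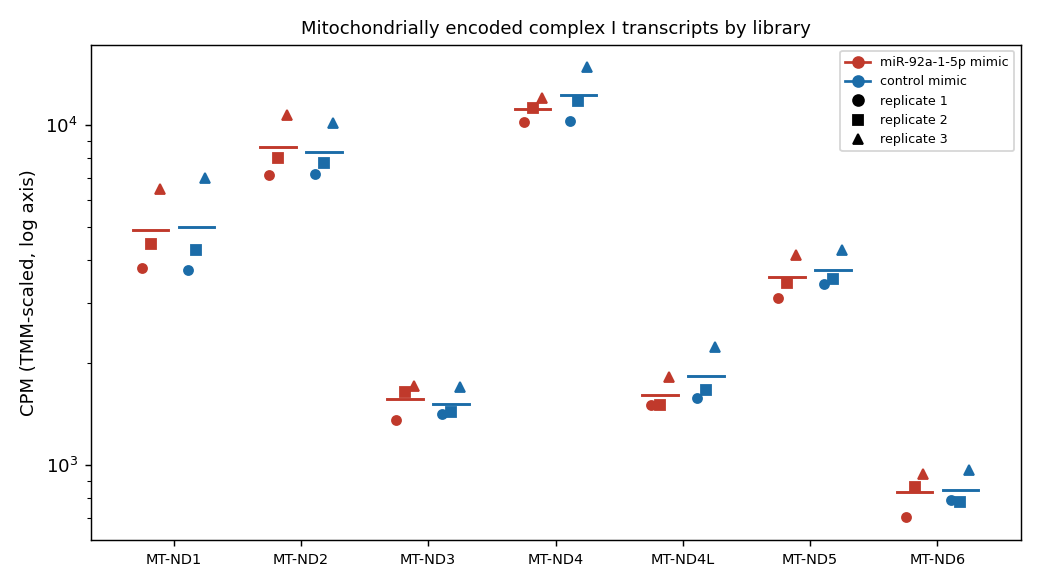
Level in CPM (TMM-scaled, log axis) of the 7 MT-ND transcripts in each library; points are libraries, shapes are replicate numbers and bars are group means. Replicate 3, the triangle, is the highest library of its group for every transcript, and MT-ND1 spans 3788 to 6498 CPM with miR92a and 3741 to 6982 CPM with scramble.

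The 2 replicate 3 libraries stood apart in these transcripts. Replicate 3 lay above the mean of replicates 1 and 2 for 7 of 7 MT-ND transcripts in both groups, by a median of 0.28 on the log2 scale with miR92a and 0.43 with scramble, while the median over all tested genes was 0.06 with miR92a and 0.00 with scramble. Nuclear core transcripts were up in replicate 3 by a median of 0.30 with miR92a and 0.05 with scramble, with 5 of 7 up and 2 of 7 down in both groups. NDUFA accessory transcripts were up by 0.33 with miR92a and 0.11 with scramble, NDUFB and NDUFC transcripts by 0.12 with miR92a and 0.14 with scramble, and assembly factors by 0.12 with miR92a and 0.11 with scramble. The 4 NDUFS and NDUFV accessory transcripts had medians of 0.12 with miR92a and -0.05 with scramble, and 2 of them were down in both groups. Embryonic globins moved the same way: HBE1 had 2547, 2867 and 6682 CPM in miR92a 1 to 3 and 3176, 3163 and 6260 CPM in scramble 1 to 3. HBZ had 1558, 1706 and 4419 CPM in miR92a 1 to 3 and 2232, 2511 and 4895 CPM in scramble 1 to 3. The part of this in the MT-ND levels was not tested.

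Summed over the 7, MT-ND transcripts came to 27824, 31185 and 37841 CPM in miR92a 1 to 3 and 28370, 31224 and 41110 CPM in scramble 1 to 3. The sums over the 36 nuclear subunits were 2532, 2753 and 3033 CPM in miR92a 1 to 3 and 2604, 2597 and 2736 CPM in scramble 1 to 3. The mitochondrial sum was thus 11.0, 11.3 and 12.5 times the nuclear sum in miR92a 1 to 3 and 10.9, 12.0 and 15.0 times in scramble 1 to 3. Scramble 3 has the highest ratio, miR92a 3 the next, and the groups overlap. The counts listed for the 213 MTND pseudogene symbols, nuclear copies of MT-ND sequence, equalled 0.225% to 0.367% of the MT-ND count across libraries; how reads were divided between copies was not tested.

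**Figure D4:**
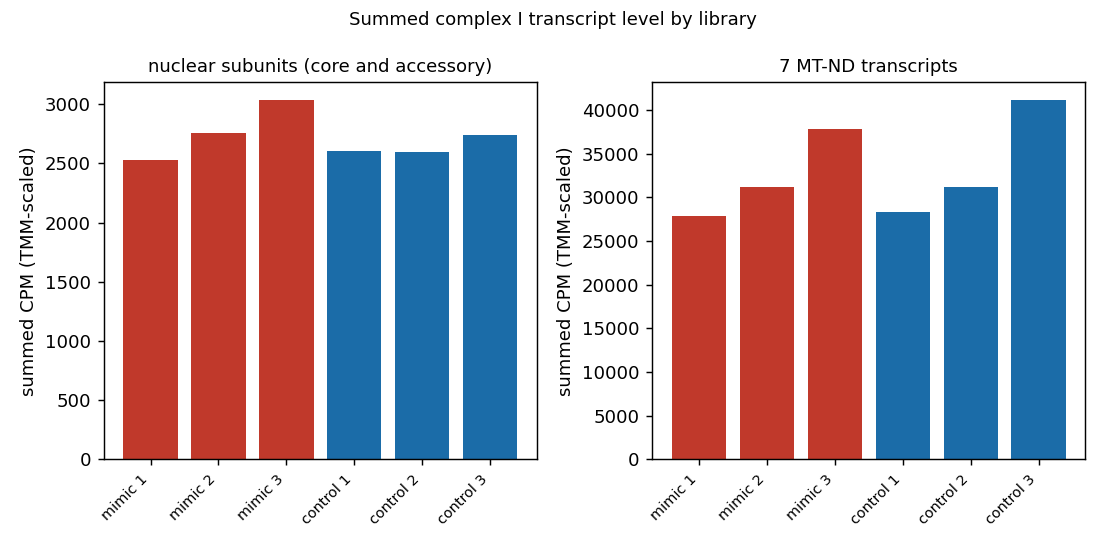
Summed level in CPM (TMM-scaled) of the 36 nuclear subunit transcripts and of the 7 MT-ND transcripts, with a bar for each library. The nuclear sums run from 2532 to 3033 CPM with miR92a and from 2597 to 2736 CPM with scramble, and the MT-ND sums are highest in replicate 3 of both groups.

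The nuclear subunits as a group sat slightly above 0. Of 36 core and accessory subunits, 31 had a log2 fold change above 0 and 5 below, with a median of 0.12, while 7019 of all 14543 tested genes were above 0 and the median of all genes was -0.01. This is a count without a test, and single members did not pass. The same count differed between replicate pairs: in pair 1, which holds the shallow library, 17 of the 36 were higher with miR92a and 19 lower, in pair 2 there were 30 higher and 6 lower, and in pair 3 there were 31 higher and 5 lower. The median differences were -0.02 in pair 1, 0.09 in pair 2 and 0.18 in pair 3. The median of the 44 nuclear members (subunits, assembly factors and NDUFA4) was 0.11 with all libraries, 0.00 without miR92a 3, which leaves the shallow miR92a 1 and miR92a 2, and 0.16 without miR92a 1.

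By position in the enzyme, all 10 tested N-module transcripts were above 0, with a median of 0.15, where 7019 of all 14543 tested genes were above 0. The lowest of the 10 was NDUFS1, at 0.01. In pair 1, NDUFA7, NDUFS1, NDUFA12, NDUFV1 and NDUFV3 were lower with miR92a, while NDUFA2, NDUFA6, NDUFS4, NDUFS6 and NDUFV2 were higher. In the Q module 5 of 6 were above 0 (median 0.11), in the proximal membrane arm 11 of 14 (median 0.08) and in the distal membrane arm 7 of 13 (median 0.01), the last 2 with MT-ND members included. None of these transcripts passed the test, and the medians themselves were not tested.

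Among the 12 NDUFA accessory subunits 11 were above 0, with a median of 0.13. NDUFA5, on the Q module (chromosome 7, 123536997 to 123558255), was the exception and had the lowest value of any subunit, with 184, 190 and 128 CPM in miR92a 1 to 3 and 201, 183 and 206 CPM in scramble 1 to 3. Only miR92a 3 lies below the scramble libraries; miR92a 1 and 2 fall within their range. The difference was -0.26 ± 0.15 (edgeR adjusted p = 0.539), and without miR92a 3 it was -0.07 ± 0.10. NDUFA3, a small membrane subunit, had the highest value, with 9.52, 5.54 and 7.90 CPM in miR92a 1 to 3 and 5.49, 5.14 and 4.66 CPM in scramble 1 to 3. These groups did not overlap, though miR92a 2 stood only just above scramble 1 and the value in miR92a 1 rests on 7 counts; the difference was 0.47 ± 0.25 (adjusted p = 0.470).

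NDUFA2, a thioredoxin-like N-module subunit, had 32.7, 28.7 and 37.2 CPM in miR92a 1 to 3 and 27.7, 27.3 and 29.8 CPM in scramble 1 to 3. NDUFA1, an X-linked subunit that complex I assembly requires, had 23.1, 32.0 and 46.3 CPM in miR92a 1 to 3 and 36.01, 30.8 and 37.0 CPM in scramble 1 to 3. Their differences were 0.22 ± 0.14 for NDUFA2 and 0.07 ± 0.20 for NDUFA1, with overlapping groups, and for NDUFA1 miR92a 1 is the lowest and miR92a 3 the highest of all libraries. The other 8 NDUFA subunits had log2 fold changes between 0.08 and 0.22.

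Of the 13 NDUFB and NDUFC subunits, which build the membrane arm, 9 were above 0 and 4 below, with a median of 0.10. NDUFC2, a subunit of the proximal arm (chromosome 11, 78068304 to 78080219), had the lowest adjusted p of all members in the fit without the block. It had 93.9, 80.6 and 88.8 CPM in miR92a 1 to 3 and 74.4, 69.5 and 72.8 CPM in scramble 1 to 3. All miR92a libraries lie above all scramble libraries, and each pair has a difference of 0.21 to 0.33. The fitted log2 fold change was 0.26 ± 0.10, with an unadjusted p of 0.025 and an adjusted p of 0.281 in edgeR's quasi-likelihood test, and the adjusted p was 0.066 with the replicate block.

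The readthrough symbol NDUFC2-KCTD14 (chromosome 11, 78016971 to 78079865) joins exons of NDUFC2 to the neighbouring KCTD14 and shares 431 exonic bases with NDUFC2. It had 0, 45 and 34 counts in miR92a 1 to 3 and 36, 108 and 71 counts in scramble 1 to 3. In CPM these were 0, 1.72 and 1.36 in miR92a 1 to 3 and 1.41, 4.27 and 2.95 in scramble 1 to 3. Scramble 1 lies within the miR92a values, so the groups overlap, and the 0 in miR92a 1 is below a floor of 4.08 CPM that nearly reaches the highest of all libraries. The log2 fold change was -0.99 ± 0.51 (edgeR adjusted p = 0.455) without the block and -1.25 ± 0.34 (adjusted p = 0.020) with it; the blocked value was -1.21 without pair 1 (adjusted p = 0.015), -1.24 without pair 2 (adjusted p = 0.446) and -1.39 without pair 3 (adjusted p = 0.157). Its share of the counts of both symbols was 0%, 2.09% and 1.51% in miR92a 1 to 3 and 1.86%, 5.78% and 3.90% in scramble 1 to 3. How kallisto divided reads between NDUFC2 and the readthrough was not tested, but the sum of both was 93.9, 82.3 and 90.2 CPM in miR92a 1 to 3 and 75.8, 73.8 and 75.7 CPM in scramble 1 to 3, again without overlap.

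**Figure D5:**
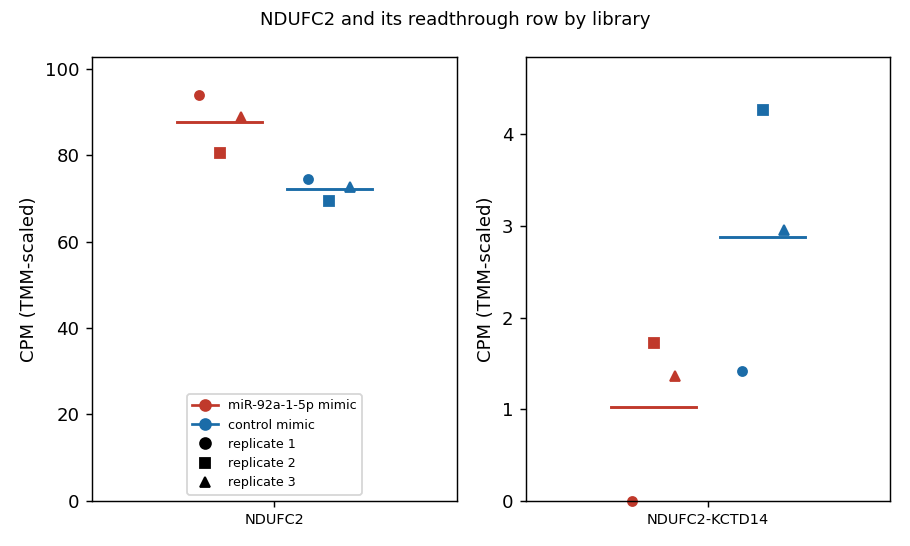
Level in CPM (TMM-scaled) of NDUFC2, left, and of the readthrough symbol NDUFC2-KCTD14, right, in each library, with group means as bars. The NDUFC2 points do not overlap between groups, at 80.6 to 93.9 CPM with miR92a and 69.5 to 74.4 CPM with scramble, and the readthrough points do overlap.

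NDUFB10, a disulphide-bonded subunit of the distal arm, had 80.3, 94.5 and 109.5 CPM in miR92a 1 to 3 and 76.1, 82.8 and 92.3 CPM in scramble 1 to 3. Each miR92a library lies above the scramble library of its own number, by 0.08 to 0.25, but the groups overlap and the difference was 0.22 ± 0.13 (edgeR adjusted p = 0.532). At the other end, NDUFB5 had 91.2, 90.3 and 82.6 CPM in miR92a 1 to 3 and 90.4, 91.2 and 100.2 CPM in scramble 1 to 3. NDUFB4 had 65.3, 58.2 and 60.0 CPM in miR92a 1 to 3 and 63.4, 60.2 and 69.0 CPM in scramble 1 to 3. In both of these distal-arm subunits the gap came from replicate 3, and the differences were -0.10 ± 0.09 for NDUFB5 and -0.09 ± 0.10 for NDUFB4.

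All 4 accessory subunits of the NDUFS and NDUFV series were above 0. NDUFS6, a zinc-binding N-module subunit added late in assembly, had 63.9, 69.9 and 85.2 CPM in miR92a 1 to 3 and 61.6, 65.3 and 60.6 CPM in scramble 1 to 3. Only miR92a 1 falls among the scramble values, and the differences by pair were 0.05, 0.10 and 0.49; the fitted value was 0.26 ± 0.12 (edgeR adjusted p = 0.397), against 0.12 ± 0.11 without miR92a 3. NDUFS4, which stabilises the N module and is a recurrent cause of Leigh syndrome when lost, had 19.0, 16.9 and 16.0 CPM in miR92a 1 to 3 and 16.1, 13.6 and 14.5 CPM in scramble 1 to 3. Only miR92a 3 and scramble 1 touch, and the difference was 0.19 ± 0.15. NDUFS5, on the intermembrane-space face, differed by 0.17 ± 0.11, and NDUFV3, at the tip of the N module, by 0.10 ± 0.11.

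Of the 7 assembly factors, 2 were above 0 and 5 below, with a median of -0.02; with the replicate block 4 were above 0 and 3 below, with a median of 0.01. Whether they differ from the subunits was not tested. NDUFAF1, part of the complex that builds the membrane arm, had the lowest value at 12.2, 12.4 and 14.4 CPM in miR92a 1 to 3 and 14.6, 13.2 and 16.3 CPM in scramble 1 to 3. The miR92a library was the lower in each pair, but the groups overlap (-0.15 ± 0.16, edgeR adjusted p = 0.764). NDUFAF7, a methyltransferase that modifies a complex I subunit, had a difference of -0.07 ± 0.12. NDUFAF2, a relative of NDUFA12 that acts late in assembly, had 0.13 ± 0.17, and NDUFAF3, which joins NDUFAF4 on the Q module, 0.04 ± 0.21. NDUFAF8, as C17orf89, had 0.19 ± 0.17 (edgeR adjusted p = 0.713). NDUFA4, of cytochrome c oxidase, had -0.09 ± 0.13.

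Promoters were searched because nuclear respiratory genes are known to share factor motifs, and those of the nuclear subunits with the highest and lowest values among members holding the NRF1 core are shown. The letters GCGCATG (the NRF1 core) and AAGATGG (YY1) are in capitals, in windows of 250 bases before and 50 after the start from RefSeq (GRCh38.p14).
NDUFS6 promoter, chr5:1801157-1801456, plus strand: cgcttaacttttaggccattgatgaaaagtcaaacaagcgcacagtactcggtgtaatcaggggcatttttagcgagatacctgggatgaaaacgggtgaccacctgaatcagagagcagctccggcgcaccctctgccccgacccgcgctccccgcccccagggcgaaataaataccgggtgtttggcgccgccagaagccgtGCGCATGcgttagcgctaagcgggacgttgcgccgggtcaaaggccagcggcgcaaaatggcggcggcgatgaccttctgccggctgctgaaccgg
NDUFA5 promoter, chr7:123557769-123558068, minus strand: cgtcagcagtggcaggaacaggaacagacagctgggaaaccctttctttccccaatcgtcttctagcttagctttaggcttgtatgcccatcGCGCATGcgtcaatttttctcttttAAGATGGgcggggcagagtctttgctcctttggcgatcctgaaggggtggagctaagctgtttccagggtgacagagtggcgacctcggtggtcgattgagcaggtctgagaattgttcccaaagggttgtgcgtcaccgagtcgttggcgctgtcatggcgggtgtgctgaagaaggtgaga
Searched on both strands, the NRF1 core stood in 9 of 37 nuclear members with a promoter entry (24.3%), against 8.68% of 10265 tested symbols. The YY1 letters also stood in 9 (24.3%), against 9.49%, and the ETS core CCGGAAG in 6 (16.2%), against 21.7%. The ETS core ends in the AAG with which the YY1 letters begin, so that these matches can overlap, and the NRF1 core can overlap its own match on the other strand. The 9 members with the NRF1 core had fold changes from -0.26 to 0.26 with a median of 0.11, and the 28 without it also had a median of 0.11. A motif match is a description of the sequence and was not tested as a bound site.

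The other genes that make, supply or regulate complex I were examined as 5 lists, each described by its counts. Over all tested genes, 0.976% were lower and 0.433% higher without the block, and 6.70% were lower and 4.57% higher with it. Of 14 assembly factors with other names, 0 passed, with 9 above 0 and 5 below and a median of 0.02; the most abundant were COA1 (94.6 ± 9.06 CPM with miR92a, 98.3 ± 3.22 with scramble) and OXA1L, the inner-membrane insertase (90.6 ± 17.2 with miR92a, 90.9 ± 15.5 with scramble; SD, n = 3 each). Of 6 other mitochondrially encoded transcripts 0 passed, with 1 above 0 and 5 below and a median of -0.11. MT-CO1, the catalytic subunit of cytochrome c oxidase, had 23969, 25540 and 23831 CPM in miR92a 1 to 3 and 25578, 27582 and 28382 CPM in scramble 1 to 3. All its miR92a values are below all scramble values, a difference of -0.15 ± 0.09 that did not pass (edgeR adjusted p = 0.528). MT-CO3 averaged 13880 ± 2236 CPM with miR92a and 14540 ± 3298 with scramble.

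Of 29 genes for mitochondrial transcription and RNA stability, 0 passed without the block, with 17 above 0 and 12 below and a median of 0.06. In the blocked fit 1 of the 29 was lower and 1 higher, against 6.70% and 4.57% of all tested genes. With the block MTERF2, a mitochondrial transcription termination factor family member, was lower, at 71.6 ± 9.39 CPM with miR92a and 91.4 ± 9.56 CPM with scramble (SD, n = 3 each; blocked log2 fold change -0.34, edgeR adjusted p = 0.025). POLG, the mitochondrial DNA polymerase, was higher, at 84.3 ± 3.45 CPM with miR92a and 67.8 ± 5.82 CPM with scramble (0.34, edgeR adjusted p = 0.026). Leaving out a pair from the blocked fit ended the MTERF2 call each time (adjusted p = 0.068 to 0.097) and the POLG call without pair 2 (0.130) or pair 3 (0.096). Of 11 regulators of nuclear respiratory genes 0 passed, with 6 above 0 and 5 below and a median of 0.02; MYC averaged 417 ± 35.6 CPM with miR92a and 404 ± 79.7 with scramble, and HCFC1 averaged 236 ± 10.7 with miR92a and 264 ± 31.1 with scramble.

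The 18 genes that supply iron-sulphur clusters, flavin and the carrier protein held the single transcript of all lists that passed without the block. ISCA1, a late-acting iron-sulphur cluster assembly protein of mitochondria, had 21.8, 24.6 and 20.5 CPM in miR92a 1 to 3 and 40.3, 36.3 and 35.4 CPM in scramble 1 to 3. No miR92a library reached the scramble range, and ISCA1 fell by 0.73 ± 0.13 on the log2 scale (SE, edgeR adjusted p = 0.039, with 16 counts in miR92a 1; DESeq2 adjusted p = 0.0082). The call was lost when any library but scramble 3 was left out (adjusted p = 0.085 to 0.210, at log2 fold changes of -0.64 to -0.85) and with total-count scaling (0.059), and was kept with the replicate block (adjusted p = 0.0010). A processed pseudogene, ISCA1P1, could share its reads. RFK, the kinase that makes FMN from riboflavin, had 27.2, 31.3 and 15.6 CPM in miR92a 1 to 3 and 14.04, 14.3 and 13.6 CPM in scramble 1 to 3. Its miR92a values lie above all scramble values, with miR92a 3 only just so; the difference was 0.78 ± 0.25 without the block (edgeR adjusted p = 0.213) and 0.72 with it (adjusted p = 0.0094), or 0.42 with it and without pair 2 (adjusted p = 0.410). Without miR92a 3 and without the block, RFK was higher by 1.11 (adjusted p = 0.017). The list as a whole had 10 genes above 0, 8 below and a median of 0.03. In the blocked fit 1 of its 18 genes was lower and 1 higher, against 6.70% and 4.57% of all tested genes.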

How the data were processed

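Paired-end sequencing of total RNA from 6 K562 cultures reached a mean coverage of 62 M per the labels, and the authors quantified it with kallisto. The deposited table gives expected counts (kallisto's estimated counts, listed by gene symbol, in whole numbers and unscaled). GRCh38 is the build in the submitters' processing notes; the kallisto version, annotation, strand setting and step from transcripts to genes are not given in the sources used here. All sample columns were used, and 12102 symbols were 0 throughout.

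Counts were filtered with filterByExpr, scaled by TMM and tested on group alone with edgeR 4.0.16 (quasi-likelihood test, R 4.3.3), with Benjamini-Hochberg adjustment over 14543 genes. A standard error is the size of the log2 fold change over the square root of F. P-values set each group difference against the spread between the labelled biological replicates, as estimated by the fit. The code was tested on simulated counts. DESeq2 1.42.0, other scalings, no filter, a replicate block and leaving out libraries were alternatives; the block with pair 2 or pair 3 left out was added after the values were seen. Intervals and floors cover counting and replicate error only.

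Replicate numbers were checked from the counts: after subtracting group means, libraries of the same number had correlations of 0.37, 0.48 and 0.63 over 4829 abundant genes (0.15, 0.16 and 0.42 over all tested genes), though miR92a 2 with scramble 1 reached 0.52. Over the abundant genes, miR92a 1 with scramble 2 was at 0.25. A replicate 3 library with replicate 1 or 2 of the other group was at -0.64 to -0.34. After centring within groups, a shift shared by the replicate 3 libraries also raises the values among replicates 1 and 2. These values therefore cannot show whether replicates 1 and 2 are paired. All same-number values exceed 0.1, the rule by which blocked values are given where they change a call.

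The members and lists were chosen with earlier results of these data known. Members named with values are the MT-ND and nuclear core subunits, those past the threshold with or without the block, and in each other class the pair highest and the pair lowest in fold change with a mean of at least 2 CPM. From the lists, genes past the threshold or else the 2 most abundant are named; globins, PTPMT1, NDUFAF8, NDUFA4 and the other members given values were chosen after their values were seen. Sequence steps used Python 3.11.15 and pandas 2.3.3, and plots matplotlib 3.10.9. Promoter and miRNA sequences are from RefSeq (GRCh38.p14), 3′ UTRs and lengths from GENCODE v29. The values of 1 nuclear core subunit are not reported here singly.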

Additional observations from a re-analysis of the deposited data

How the results depend on the processing

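Under 15 alternatives, the 31 named members gave 465 values, of which 429 kept their direction and their side of the threshold. Members higher numbered 0 throughout, and members lower 0 except 1 with the replicate block (NDUFC2-KCTD14) and 0 to 1 when a pair was left out of the blocked fit. That 1 was NDUFC2-KCTD14 without pair 1 (-1.21, edgeR adjusted p = 0.015), and NDUFA5 without pair 2 (-0.47, adjusted p = 0.022). The replicate block changed no other call among members. Within the gene lists it added the MTERF2, POLG and RFK calls. Over all tested genes, 142 were lower and 63 higher, against 975 and 664 with the replicate block, 242 and 137 with DESeq2, and 56 to 148 and 14 to 53 with a library left out. With the block they were 751 and 486 without pair 1, 549 and 285 without pair 2, and 866 and 554 without pair 3. No scaling moved the median of all genes by more than 0.03.

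Signs turned in 33 values of 13 members, none of them called. With a library left out, the log2 fold change ran from -0.28 to 0.29 for MT-ND1, -0.14 to 0.21 for MT-ND2, -0.0072 to 0.15 for MT-ND3, -0.25 to 0.019 for MT-ND4, -0.19 to 0.044 for MT-ND5, -0.11 to 0.099 for MT-ND6, -0.21 to 0.19 for NDUFA1, -0.15 to 0.18 for NDUFAF3, -0.088 to 0.089 for NDUFS1, -0.031 to 0.265 for NDUFS3, -0.025 to 0.21 for NDUFS7 and -0.042 to 0.21 for NDUFS8. With the replicate block the sign also turned without pair 1 for MT-ND6 (0.059), and without pair 2 for MT-ND3 (-0.030) and NDUFS1 (-0.021). Without pair 3 it turned for MT-ND1 (0.038), MT-ND6 (0.015), NDUFA1 (-0.090), NDUFA5 (0.0026), NDUFAF3 (-0.042), NDUFS1 (-0.043) and NDUFS7 (-0.0013). Apart from MT-ND6 with total counts alone (0.010), whose cause was not tested, each of these fits held fewer samples. Depth limits miR92a 1, where 3 counts equal 4.08 CPM.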
